A study of Homo sapiens and Mus musculus with 57 samples.

Results

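Aminoacyl-tRNA synthetases are the enzymes that join each amino acid to its transfer RNA before translation. The genes described here are 36 synthetase genes of the human tables, taken by their older symbols: 20 for cytosolic enzymes (AARS to YARS) and 16 for mitochondrial enzymes, whose symbols end in 2. All 36 were found among the 30373 gene rows, and all 36 passed the filter on low counts in every comparison, so each count below is out of the whole set. RNA was sequenced from 4 human tumour lines grown in culture: THP-1, a monocytic leukaemia line; HCT116 and Colo205, colorectal carcinoma lines; and MDA-MB-231, a breast carcinoma line. HCT116, Colo205 and MDA-MB-231 cells received 1 uM TAK-981, 1 uM ML-792 or the vehicle DMSO for 16 h, and THP-1 cells received 1 uM TAK-981 or DMSO for 16 h. TAK-981 and ML-792 both inhibit the SUMO-activating enzyme, which starts the attachment of the small protein SUMO to other proteins. Each of the 11 groups had 3 libraries. The labels say that cells were plated in triplicate and not whether the 3 came from separate cultures, and the p-values given here reflect how far these libraries vary, which may be technical. A line is a single cell population that does not stand for its tumour type.

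The cytosolic enzymes work either free in the cytosol or, for DARS, EPRS, IARS, KARS, LARS, MARS, QARS and RARS, in a multisynthetase complex held together by the scaffold proteins AIMP1, AIMP2 and EEF1E1. When amino acids run short, uncharged transfer RNA activates the kinase GCN2 (EIF2AK4), and the transcription factor ATF4 then raises amino acid transporters, biosynthetic enzymes and many cytosolic synthetase genes. WARS is also known as a gene that interferon-gamma raises. The cytosolic genes are therefore split into 13 that are linked to ATF4 in the literature (AARS, CARS, EPRS, GARS, IARS, LARS, MARS, NARS, SARS, TARS, VARS, WARS and YARS) and 7 others (DARS, FARSA, FARSB, HARS, KARS, QARS and RARS).

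The promoters of the members were searched for TGATGNAA, the core of the amino acid response element, where N is any base, on both strands. Promoter sequence from RefSeq (GRCh38.p14) was at hand for 30 of the 36 members and covers 250 bases before and 50 after each start. The sequences read 5′ to 3′ on the strand of the gene and stop before the start, and capitals mark the match or its reverse complement.
AARS, chr16:70289670-70289709, minus strand: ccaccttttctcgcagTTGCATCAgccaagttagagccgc
GARS, chr7:30594829-30594868, plus strand: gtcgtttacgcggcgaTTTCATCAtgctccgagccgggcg
IARS, chr9:92293698-92293726, minus strand: ccgcattttcagcgcgTTGCATCAcctcc
YARS2, chr12:32756071-32756110, minus strand: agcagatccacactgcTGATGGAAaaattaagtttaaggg
The match began 187, 33, 13 and 197 bases before the start in AARS, GARS, IARS and YARS2.
Within the 250 bases before the start it was present in 3 of 10 ATF4-linked, 0 of 6 other cytosolic and 1 of 14 mitochondrial members with a sequence, against 3.89% of all 27305 genes (3.14% of 35116 promoters). With the 50 bases after the start included, the counts were 7 of 10, 0 of 6 and 1 of 14, against 4.46% of genes (3.62% of promoters). The members added are CARS and MARS, where the match spans the start, and NARS and TARS, where it lies just after it. TGACGTCA, the CRE palindrome, was in no member's 250 bases and in 2.03% of genes (1.65% of promoters). These matches describe letters only, and binding was not measured. A part of the motif in the changes below was not tested.

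Total counts were 17336368 to 25807864 per library, with 16859 to 18189 genes detected. Of the myeloid marker list, 8 of 8 genes were above 1 FPKM in THP-1 with DMSO, and of the colorectal list 8 of 9 in Colo205 and 5 of 9 in HCT116. In Colo205, 1 of the 8 myeloid genes was above 1 FPKM and carried a summed level of 1130 to 1220 FPKM in the DMSO libraries, while SPI1, ELANE and CSF1R were at 0 there. In THP-1 the myeloid list summed to 1160 to 1250 FPKM with TAK-981 and to 2490 to 2630 FPKM with DMSO, and genes of the mitochondrial genome took 13.6% to 17.0% of counts with TAK-981 and 7.15% to 7.58% with DMSO. The part of these shifts in the THP-1 results below was not tested. In bulk RNA, fewer cells of one kind and less RNA per cell cannot be told apart.

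In untreated cells, levels are given as FPKM, fragments per kilobase of gene, scaled to library size. Most cytosolic genes stood above most of the mitochondrial ones, but the 2 sets overlapped. In THP-1, for example, CARS had a mean of 22.2 FPKM and CARS2 one of 38.2 FPKM. PARS2, the mitochondrial prolyl enzyme, was the lowest member in all 4 lines, at 1.60 ± 0.366 FPKM in THP-1, 3.50 ± 0.181 in HCT116, 3.06 ± 0.0473 in Colo205 and 2.55 ± 0.226 in MDA-MB-231 (SD, n = 3 each). IARS2, the mitochondrial isoleucyl enzyme, was the highest mitochondrial member in each line, at 70.5 ± 3.34, 59.4 ± 3.37, 80.7 ± 1.60 and 73.4 ± 2.58 FPKM in the same order. The top of the cytosolic set differed by line: KARS led in THP-1 at 142 ± 3.36 FPKM, NARS and SARS in HCT116 at means of 116 and 115 FPKM, and TARS in Colo205 at 199 ± 3.80 FPKM and in MDA-MB-231 at 191 ± 12.0 FPKM.

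Colo205 had the highest mean FPKM for 16 of the 36 members, among them 12 of the 13 ATF4-linked genes. The share of all genes highest in Colo205 is not given here, so these counts have no background beside them. For NARS, SARS, TARS and EARS2 the Colo205 libraries overlapped those of the next line. AARS, the alanyl enzyme, averaged 163 ± 6.63 FPKM in Colo205, 102 ± 4.68 in HCT116, 38.7 ± 3.23 in MDA-MB-231 and 38.0 ± 3.30 in THP-1, and the libraries of the 2 lowest lines overlapped. CARS, SARS and TARS, for cysteine, serine and threonine, spanned a similar range between Colo205 and THP-1 (4.05-fold, 3.99-fold and 4.21-fold). For SARS the libraries of Colo205, MDA-MB-231 and HCT116 overlapped each neighbour, and THP-1 stood apart at 35.1 to 37.1 FPKM. VARS, the valyl enzyme, had the opposite order, at 122 ± 3.02 FPKM in THP-1 and 38.2 to 40.9 FPKM in Colo205. Its deposited counts and FPKM imply an effective length of 1990 bases in THP-1 and 4050 bases in HCT116, and in CPM the span between THP-1 and Colo205 was 1.73-fold, against 3.06-fold in FPKM. QARS, the glutaminyl enzyme, has a like difference in implied length (1350 bases in THP-1, 2390 bases in HCT116), and it is highest in THP-1 by FPKM but lowest there by counts.

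**Figure D1:**
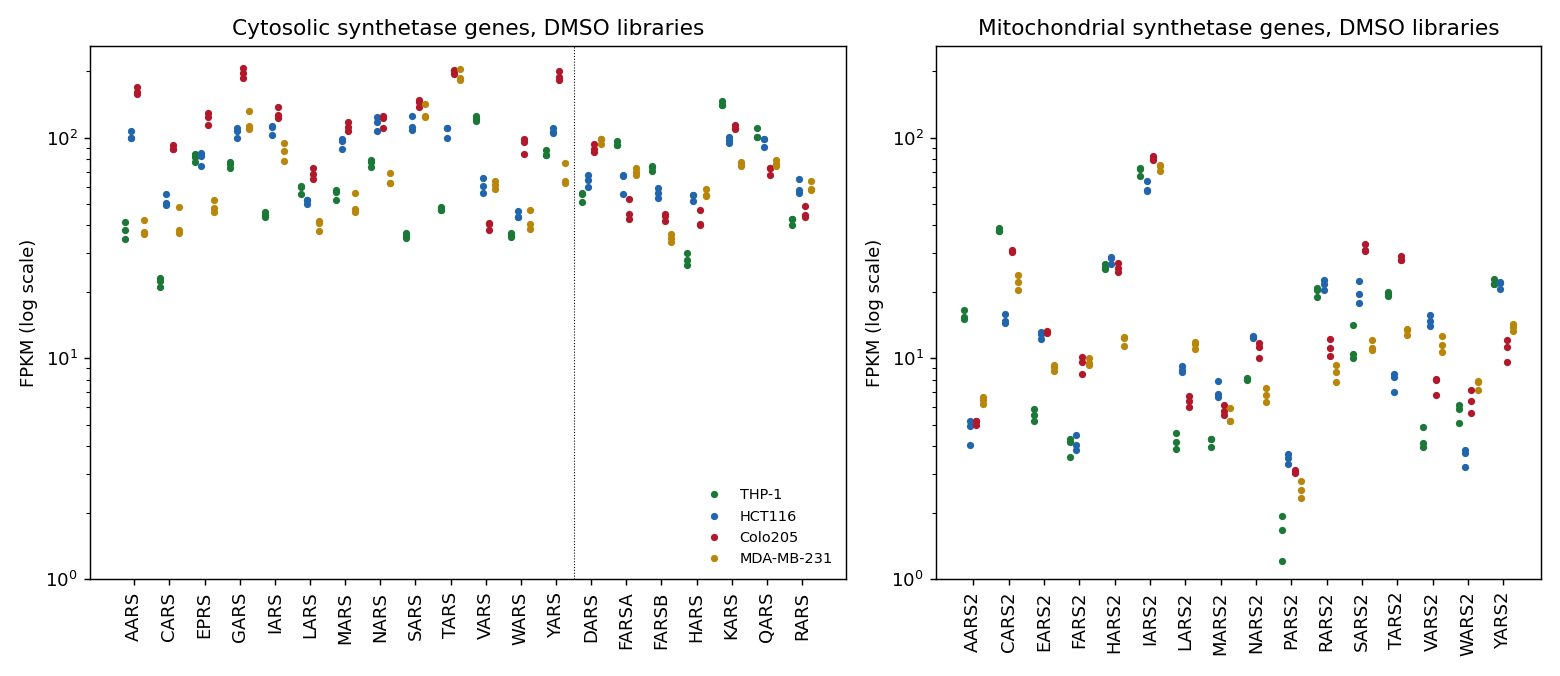
FPKM of each synthetase gene in the DMSO libraries of 4 lines (log axis; each point is 1 of 3 libraries; the dotted line parts ATF4-linked from other cytosolic genes). Colo205 has the highest mean for 12 of the 13 ATF4-linked genes, with overlap of the next line in some, and IARS2 stands among the cytosolic genes in level.

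Responses were tested per line with edgeR's quasi-likelihood test on all genes, and a gene is said to have risen or fallen where the Benjamini-Hochberg adjusted p was under 0.05. Values per library below are CPM, counts scaled to a common library size with TMM factors of each line, in the order of the replicate numbers.

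In Colo205, both inhibitors lowered synthetase genes. With ML-792, 22 of the 36 members fell and 1 rose, where 41.8% of all genes tested were called (20.8% fell and 20.9% rose). All 13 ATF4-linked genes were among those that fell. With TAK-981, 18 members fell and 2 rose, against 18% and 17.9% of all genes, and 8 of the 13 ATF4-linked genes fell. The changes were moderate: the median log2 fold change of the 20 cytosolic genes was -0.40 with ML-792 and -0.23 with TAK-981, while the median over all genes was within 0.00235 of 0 in both. The 2 comparisons share their DMSO libraries. The numbers that rose rest on few genes: the replicate block gave 2 with ML-792, where numbers pair those samples, and leaving out a library gave 0 (TAK-981 replicate 3) or 1 with TAK-981, 2 with ML-792 without its replicate 2, and 0 with ML-792 without its replicate 1 or 3 or without DMSO replicate 2 or 3.

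VARS fell most with TAK-981. It had 106, 114 and 102 CPM with TAK-981, 110, 104 and 103 CPM with ML-792, and 168, 163 and 153 CPM with DMSO. Every library of either inhibitor was below every DMSO library, and the inhibitors overlapped (log2 fold change -0.59 ± 0.06 SE with TAK-981, adjusted p = 2.48e-06, and -0.61 ± 0.06 with ML-792, adjusted p = 1.815e-06).

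GARS, the glycyl enzyme that serves both cytosol and mitochondria, fell most with ML-792. Its libraries read 356, 393 and 376 CPM with TAK-981, 255, 371 and 285 CPM with ML-792, and 452, 490 and 468 CPM with DMSO. Both inhibitors were below DMSO throughout, and replicate 2 of ML-792 lay within the TAK-981 range (-0.33 ± 0.10, adjusted p = 0.0198, with TAK-981; -0.63 ± 0.10, adjusted p = 2.37e-04, with ML-792).

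WARS, the tryptophanyl enzyme, read 180, 217 and 188 CPM with TAK-981, 151, 190 and 152 CPM with ML-792, and 221, 253 and 246 CPM with DMSO. It fell with each inhibitor (-0.30 ± 0.09 with TAK-981 and -0.55 ± 0.09 with ML-792). MARS, the methionyl enzyme, read 224, 261 and 241 CPM with TAK-981, 192, 235 and 200 CPM with ML-792, and 306, 314 and 292 CPM with DMSO. Its log2 fold changes were -0.33 ± 0.07 with TAK-981 and -0.54 ± 0.07 with ML-792. MARS overlaps DDIT3 at one end in RefSeq and DDIT3 rose in this line, and no source used here says that strand was used in counting, so the MARS values may hold reads of its neighbour.

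AARS and SARS passed the test against DMSO with ML-792 and not with TAK-981. AARS had 525, 607 and 568 CPM with TAK-981, 409, 545 and 423 CPM with ML-792, and 532, 558 and 534 CPM with DMSO. It fell with ML-792, where the groups overlapped (-0.24 ± 0.09, adjusted p = 0.0443), and with TAK-981 its log2 fold change was 0.06 and was not called. SARS had 249, 303 and 276 CPM with TAK-981, 194, 266 and 209 CPM with ML-792, and 279, 297 and 292 CPM with DMSO, and fell with ML-792 (-0.37 ± 0.10, adjusted p = 0.00720).

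Among the 7 other cytosolic genes, 3 fell with TAK-981 (DARS, FARSB and HARS) and 3 with ML-792 (DARS, FARSB and KARS). Of all genes, 18% fell with TAK-981 and 20.8% with ML-792. FARSB, a subunit of the phenylalanyl enzyme, had 54.5, 70.3 and 61.4 CPM with TAK-981, 51.2, 62.9 and 59.5 CPM with ML-792, and 81.0, 86.7 and 85.8 CPM with DMSO. Both inhibitor groups lay below DMSO (-0.45 ± 0.09 with TAK-981, -0.54 ± 0.09 with ML-792). FARSA, the partner subunit, was not called, with log2 fold changes of -0.02 with TAK-981 and 0.10 with ML-792.

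Of the 16 mitochondrial genes, 7 fell with TAK-981 and 6 with ML-792, against 18% and 20.8% of all genes. EARS2, the mitochondrial glutamyl enzyme, had 37.9, 36.6 and 40.7 CPM with TAK-981, 39.4, 39.1 and 41.0 CPM with ML-792, and 51.0, 49.8 and 50.1 CPM with DMSO. The DMSO libraries stood clear of both inhibitors (-0.39 ± 0.05 with TAK-981, -0.34 ± 0.05 with ML-792). AARS2, the mitochondrial alanyl enzyme, rose under TAK-981 (0.21 ± 0.06, adjusted p = 0.0180) and under ML-792 (0.18 ± 0.06, adjusted p = 0.0393), at 27.8, 27.2 and 28.9 CPM with TAK-981, 26.6, 26.2 and 29.2 CPM with ML-792, and 24.6, 24.1 and 23.8 CPM with DMSO. RARS2, the mitochondrial arginyl enzyme, had 24.0, 23.4 and 23.6 CPM with TAK-981 against 18.8, 20.1 and 22.3 CPM with DMSO, and rose by a log2 fold change of 0.22 ± 0.08 (adjusted p = 0.0484).

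**Figure D2:**
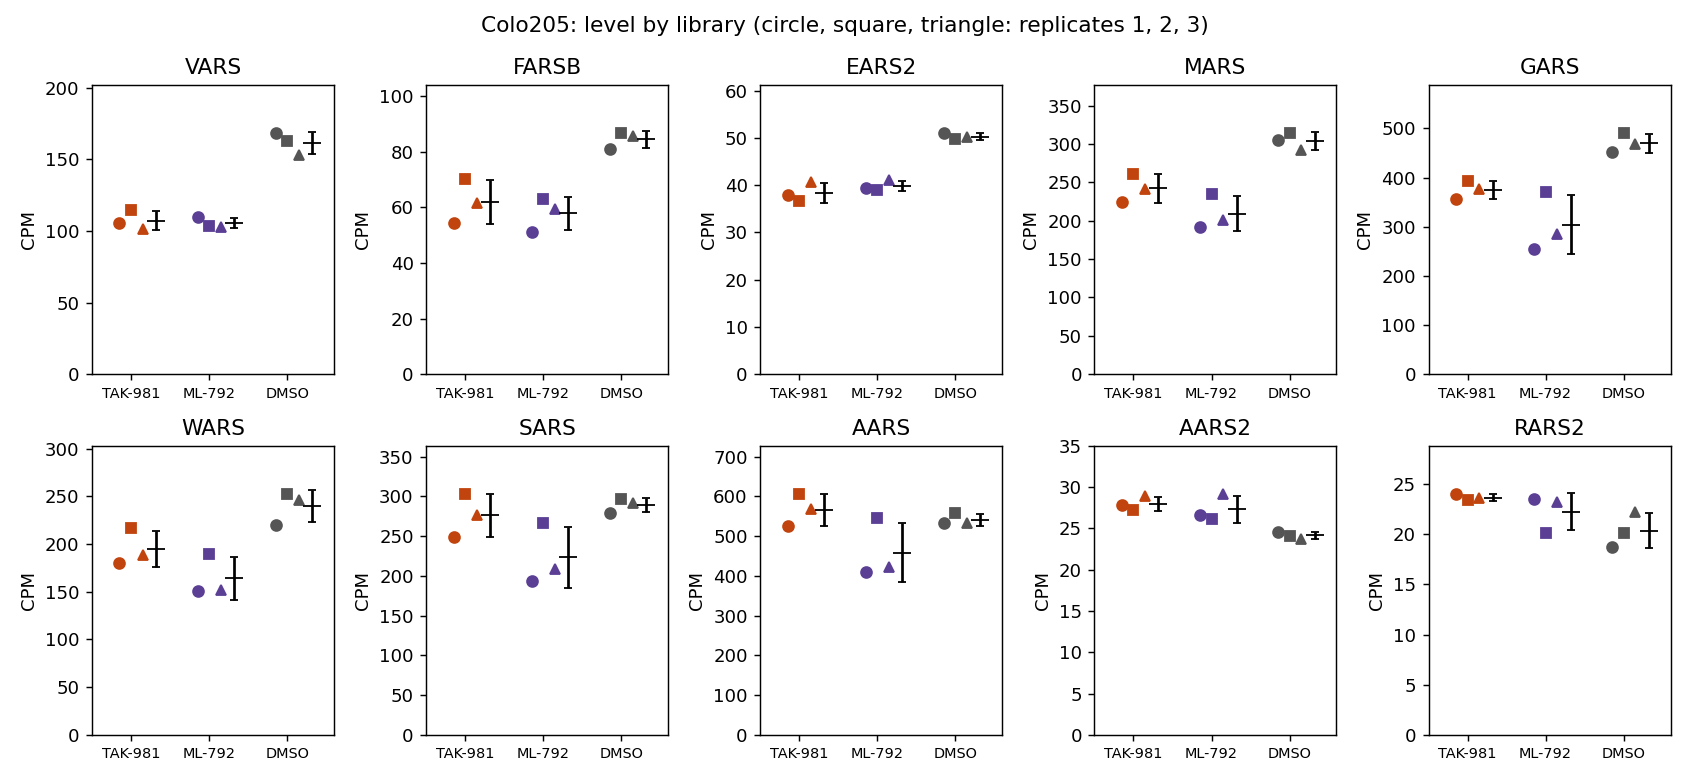
CPM of 10 synthetase genes in Colo205 by treatment (each symbol is 1 library; black marks are mean ± SD, n = 3; axes start at 0). VARS, FARSB, EARS2, MARS, GARS and WARS are lower in both inhibitor groups than with DMSO, and SARS and AARS are lowest in ML-792 replicates 1 and 3.

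The compounds were compared directly at 1 uM and 16 h for the 36 members in each of 3 lines, with p-values adjusted over all genes of the line. No member was called in any line without the replicate numbers in the model, where 0.0481% of all genes were called in HCT116, 0.00707% in Colo205 and 0.0215% in MDA-MB-231 (0.0143% higher and 0.00716% lower with TAK-981). DESeq2 called 0 members in each line as well. At an unadjusted p under 0.05 there were 1, 11 and 3 members in HCT116, Colo205 and MDA-MB-231. The 95% intervals of the members' log2 differences, TAK-981 minus ML-792, reached from -0.42 to 0.40 in HCT116, from -0.38 to 0.52 in Colo205 and from -0.33 to 0.38 in MDA-MB-231, so differences of that size are not excluded.

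In Colo205 the same-numbered libraries of TAK-981 and ML-792 deviated together (correlations of 0.309 to 0.404 over genes of at least 10 CPM), so the fit with the replicate number as a block is given beside this result. With the block, 10 of the 36 members were higher with TAK-981 than with ML-792 and none was lower, where 4.41% of all genes were called. All 10 are ATF4-linked: AARS, CARS, EPRS, GARS, IARS, MARS, SARS, TARS, WARS and YARS. The blocked log2 difference was 0.31 for AARS (95% interval 0.20 to 0.42, adjusted p = 0.00515), 0.31 for SARS (0.19 to 0.43, adjusted p = 0.00601) and 0.17 for TARS (0.08 to 0.27, adjusted p = 0.0402). Without the block the differences were nearly the same, at 0.30, 0.31 and 0.17, with intervals of 0.11 to 0.49, 0.10 to 0.51 and 0.03 to 0.30. Leaving out ML-792 replicate 2 gave 11 called members without a block.

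The replicate numbers marked the ATF4-linked genes in all 3 lines with numbers shared between groups. Their summed level was highest in replicate 2 in each of the 9 groups. In Colo205 it was 4043, 4573 and 4271 CPM with TAK-981, 3303, 4235 and 3486 CPM with ML-792, and 4820, 5151 and 4986 CPM with DMSO. MDA-MB-231 had 3043, 3388 and 3131 CPM with TAK-981, 2833, 3169 and 2909 CPM with ML-792, and 2708, 3180 and 2803 CPM with DMSO. In HCT116 the sums were 3322, 3822 and 3593 CPM with TAK-981, 3506, 3883 and 3631 CPM with ML-792, and 3484, 3585 and 3261 CPM with DMSO. Replicate 2 of MDA-MB-231 with DMSO was thus above TAK-981 replicates 1 and 3.

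Gene by gene, 8 of the 13 ATF4-linked genes (AARS, CARS, GARS, IARS, MARS, SARS, WARS and YARS) were highest in replicate 2 in 9 of 9 groups. The same was true of 0 of the 7 other cytosolic genes, 0 of the 16 mitochondrial genes, 7 of 24 measured genes of a list of other ATF4 targets and regulators, and 36 of all 7891 genes of at least 10 CPM (0.456%). The lists were not split cleanly: FARSB was highest in replicate 2 in 7 of 9 groups and DARS in 6. ATF4-linked EPRS had 7 such groups, NARS and TARS 6 each and VARS 4. The median was 9 groups for the ATF4-linked genes and 3 for the other cytosolic genes. The pattern was noticed in these data and is given as a description. The labels do not say what the replicate numbers stand for, and a cause was not tested. With the block, the standard error of the ATF4-linked genes fell to a median of 0.520 of its unblocked size in MDA-MB-231 and 0.615 in Colo205 (TAK-981 against DMSO), against 0.943 and 0.809 for the other cytosolic genes and 0.944 and 0.900 for all genes. In HCT116 the block changed it less, to 0.911 for ATF4-linked, 1.00 for other cytosolic and 1.03 for all genes.

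**Figure D3:**
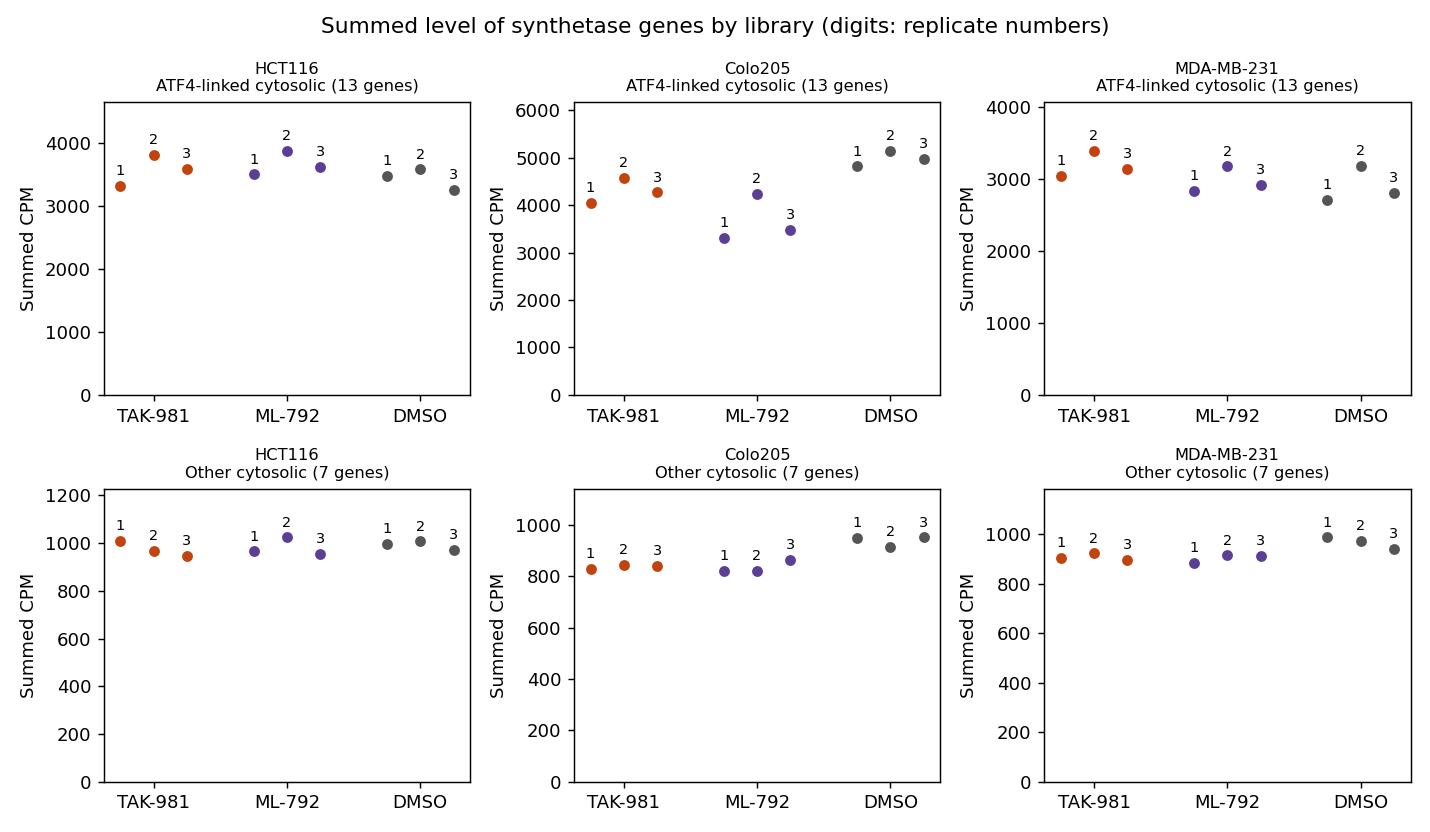
Summed CPM of the 13 ATF4-linked (top) and 7 other cytosolic (bottom) synthetase genes in each library of 3 lines, with digits for the replicate number (axes start at 0). Replicate 2 is the highest ATF4-linked point in all 9 groups. It is also the highest other cytosolic point in some groups. The exceptions are HCT116 with TAK-981, Colo205 with DMSO or ML-792, and MDA-MB-231 with DMSO.

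In MDA-MB-231, 22.2% of the members were called with each inhibitor without the replicate block. This share was near that of all genes (20.2% with TAK-981 and 22.6% with ML-792). With TAK-981, 3 members rose and 5 fell, where 20.2% of all genes were called (10.6% rose and 9.52% fell). The 3 that rose are the ATF4-linked SARS, TARS and WARS, and the 5 that fell are DARS, QARS, CARS2, EARS2 and IARS2. The same-numbered libraries deviated together here too (0.202 to 0.418), and with the replicate block 7 members rose (AARS, IARS, MARS, SARS, TARS, WARS and YARS) and 6 fell, where 25.1% of all genes were called. Without DMSO replicate 2 the number that rose was 10. It was 1 without DMSO replicate 3 or TAK-981 replicate 2. Without TAK-981 replicate 3, 3 members fell.

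SARS, the seryl enzyme, had 290, 325 and 287 CPM with TAK-981, 273, 309 and 271 CPM with ML-792, and 241, 280 and 244 CPM with DMSO in MDA-MB-231. TAK-981 libraries were all above DMSO, and replicate 2 was highest in each group (0.24 ± 0.06, adjusted p = 0.0132). TARS had 551, 611 and 574 CPM with TAK-981 and 475, 542 and 487 CPM with DMSO, with no overlap (0.21 ± 0.05, adjusted p = 0.00551). WARS had 118, 147 and 121 CPM with TAK-981, 107, 125 and 111 CPM with ML-792, and 97.2, 121 and 105 CPM with DMSO, so that DMSO replicate 2 overlapped the TAK-981 group (0.26 ± 0.08, adjusted p = 0.0381).

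DARS, the aspartyl enzyme of the multisynthetase complex, fell in MDA-MB-231 with TAK-981 (-0.19 ± 0.04, adjusted p = 0.00200) and with ML-792 (-0.17 ± 0.04, adjusted p = 0.00504). Its libraries had 174, 187 and 185 CPM with TAK-981, 182, 189 and 185 CPM with ML-792, and 210, 214 and 201 CPM with DMSO. EARS2 had 29.3, 28.1 and 29.4 CPM with TAK-981, 29.3, 25.9 and 29.6 CPM with ML-792, and 33.9, 36.5 and 35.2 CPM with DMSO. All inhibitor libraries were below DMSO (-0.28 ± 0.06 with TAK-981, -0.32 ± 0.06 with ML-792). IARS2 had 219, 229 and 228 CPM with TAK-981 against 243, 264 and 259 CPM with DMSO (-0.18 ± 0.04), and CARS2, for cysteine, had 35.4, 36.6 and 37.4 CPM with TAK-981, 34.4 to 36.4 CPM with ML-792, and 42.6, 38.5 and 40.8 CPM with DMSO (-0.16 ± 0.05 with TAK-981, -0.19 ± 0.05 with ML-792). Neither gene, each named because it was called, overlapped between an inhibitor and DMSO.

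ML-792 in MDA-MB-231 lowered 7 members and raised 1, where 11% and 11.6% of all genes fell and rose. The 7 are DARS, QARS, VARS, CARS2, EARS2, IARS2 and LARS2. LARS2, the mitochondrial leucyl enzyme, had 41.3, 43.4 and 40.8 CPM with ML-792 and 45.6, 49.7 and 47.7 CPM with DMSO, with no overlap (-0.19 ± 0.05, adjusted p = 0.0175). RARS2 rose, at 17.1, 19.6 and 17.8 CPM with ML-792 and 16.8, 14.5 and 15.7 CPM with DMSO (0.22 ± 0.08, adjusted p = 0.0470). Without ML-792 replicate 1 or 3 the number that fell was 4. Leaving out DMSO replicate 2 gave 2 rising members, and leaving out DMSO replicate 3 or ML-792 replicate 2 or 3 gave 0.

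HCT116 had the fewest calls, among the members and among all genes. With TAK-981, 13.9% of the members were called, near the 14.4% of all genes. With ML-792 the shares were 2.78% and 11.3%. TAK-981 raised 2 members and lowered 3, where 7.66% and 6.73% of all genes rose and fell, and ML-792 raised 1 and lowered 0, where 5.99% and 5.27% did. For that 0, 2 members fell at an unadjusted p under 0.05 and DESeq2 called 0. SARS rose with each inhibitor: it had 273, 333 and 276 CPM with TAK-981, 269, 325 and 273 CPM with ML-792, and 212, 238 and 200 CPM with DMSO. All inhibitor libraries were above all DMSO libraries (0.44 ± 0.10, adjusted p = 0.00861, with TAK-981; 0.42 ± 0.10, adjusted p = 0.0140, with ML-792).

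The other 4 calls in HCT116 were mitochondrial and came with TAK-981. VARS2, the mitochondrial valyl enzyme, rose (0.30 ± 0.08), at 54.5, 54.5 and 59.4 CPM with TAK-981 and 41.0, 46.4 and 48.9 CPM with DMSO. EARS2 fell (-0.29 ± 0.08), at 38.4, 42.8 and 37.1 CPM with TAK-981 and 50.4, 49.2 and 45.5 CPM with DMSO. IARS2 fell (-0.25 ± 0.07), at 157, 183 and 173 CPM with TAK-981 and 218, 199 and 192 CPM with DMSO, and MARS2, for methionine, fell (-0.30 ± 0.08), at 17.4, 17.7 and 17.7 CPM with TAK-981 and 21.1, 20.4 and 23.5 CPM with DMSO. None of the 4 genes, named here because they were called, overlapped between these groups. Without TAK-981 replicate 3 the numbers were 1 rising and 0 falling, and without DMSO replicate 1 or 2 they were 1 and 1. With ML-792 the SARS call was lost without DMSO replicate 3 or ML-792 replicate 2. WARS was not called in HCT116, with 107, 126 and 116 CPM with TAK-981, 108, 129 and 114 CPM with ML-792, and 109, 116 and 107 CPM with DMSO.

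THP-1 had the largest changes, among the members and among all genes. TAK-981 lowered 16 members and raised 10, where 69.4% of all genes were called (33.9% fell and 35.5% rose). The share of members called, 72.2%, was near that of all genes. The median absolute log2 fold change was 0.52 for the members and 0.49 for all genes. The cytosolic genes mostly fell (12 fell, 4 rose, median log2 fold change -0.60) and the mitochondrial genes were mixed (4 fell, 6 rose, median 0.17), against a median of 0.03 over all genes. The summed cytosolic level was 2658, 2556 and 2639 CPM with TAK-981 and 3514, 3575 and 3514 CPM with DMSO, and the summed mitochondrial level was 814, 773 and 812 CPM with TAK-981 and 748, 762 and 733 CPM with DMSO. Neither sum overlapped between the groups. Of the 8 members of the multisynthetase complex, 6 fell, and MARS and RARS were not called. On the deposited FPKM (limma, log2 of FPKM plus 0.1 or 1) 16 members rose, with the median of all genes at 0.239 or 0.165.

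DARS had 72.1, 56.4 and 56.5 CPM with TAK-981 and 132, 130 and 116 CPM with DMSO (log2 fold change -1.03 ± 0.09, adjusted p = 2.49e-07). LARS, the leucyl enzyme of the complex, had 139, 140 and 135 CPM with TAK-981 and 287, 270 and 282 CPM with DMSO (-1.02 ± 0.06, adjusted p = 3.89e-09). NARS, for asparagine, had 121, 99.2 and 98.3 CPM with TAK-981 and 207, 214 and 196 CPM with DMSO (-0.96 ± 0.08). All TAK-981 libraries of these 3 genes were below all DMSO libraries.

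WARS also fell in THP-1, to 58.9, 58.5 and 60.9 CPM with TAK-981, against 96.1, 98.4 and 96.3 CPM with DMSO (-0.71 ± 0.06, adjusted p = 1.92e-07). In the same libraries 7 of 8 tested interferon-gamma-linked genes rose and 1 fell, where 35.5% of all genes rose and 33.9% fell. Their log2 fold changes ran from -0.30 to 6.76. GBP2, a guanylate-binding protein, had a log2 fold change of 2.62, IRF1, a transcription factor, one of 1.79 and TAP1, a peptide transporter, one of 1.04, and PSMB9, an immunoproteasome subunit, fell by 0.30.

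SARS moved against most cytosolic members in THP-1, at 120, 122 and 125 CPM with TAK-981 and 73.1, 75.0 and 75.8 CPM with DMSO (0.71 ± 0.06, adjusted p = 1.53e-07). The other cytosolic genes that rose were HARS (0.46 ± 0.07), TARS (0.26 ± 0.10), whose libraries overlapped, and CARS (0.18 ± 0.07). AARS, MARS, RARS and VARS were not called.

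HARS2 rose most, at 110, 114 and 110 CPM with TAK-981 and 55.7, 54.2 and 54.8 CPM with DMSO (1.02 ± 0.06, adjusted p = 4.74e-09). HARS2 and HARS, the mitochondrial and cytosolic histidyl genes, lie next to each other in RefSeq, and both have fractional counts in all 33 libraries, so reads may be shared between them. PARS2 had 6.87, 7.43 and 7.77 CPM with TAK-981 and 4.26, 3.18 and 4.94 CPM with DMSO (0.83 ± 0.16), and LARS2 had 28.5, 27.6 and 26.0 CPM with TAK-981 and 17.1, 18.5 and 19.6 CPM with DMSO (0.57 ± 0.09). In the other direction VARS2, which also has fractional counts, had 6.44, 7.59 and 8.27 CPM with TAK-981 and 14.5, 13.6 and 15.6 CPM with DMSO (-0.97 ± 0.12, adjusted p = 5.04e-06), and EARS2 fell by 0.80 on the log2 scale (± 0.10 SE).

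**Figure D4:**
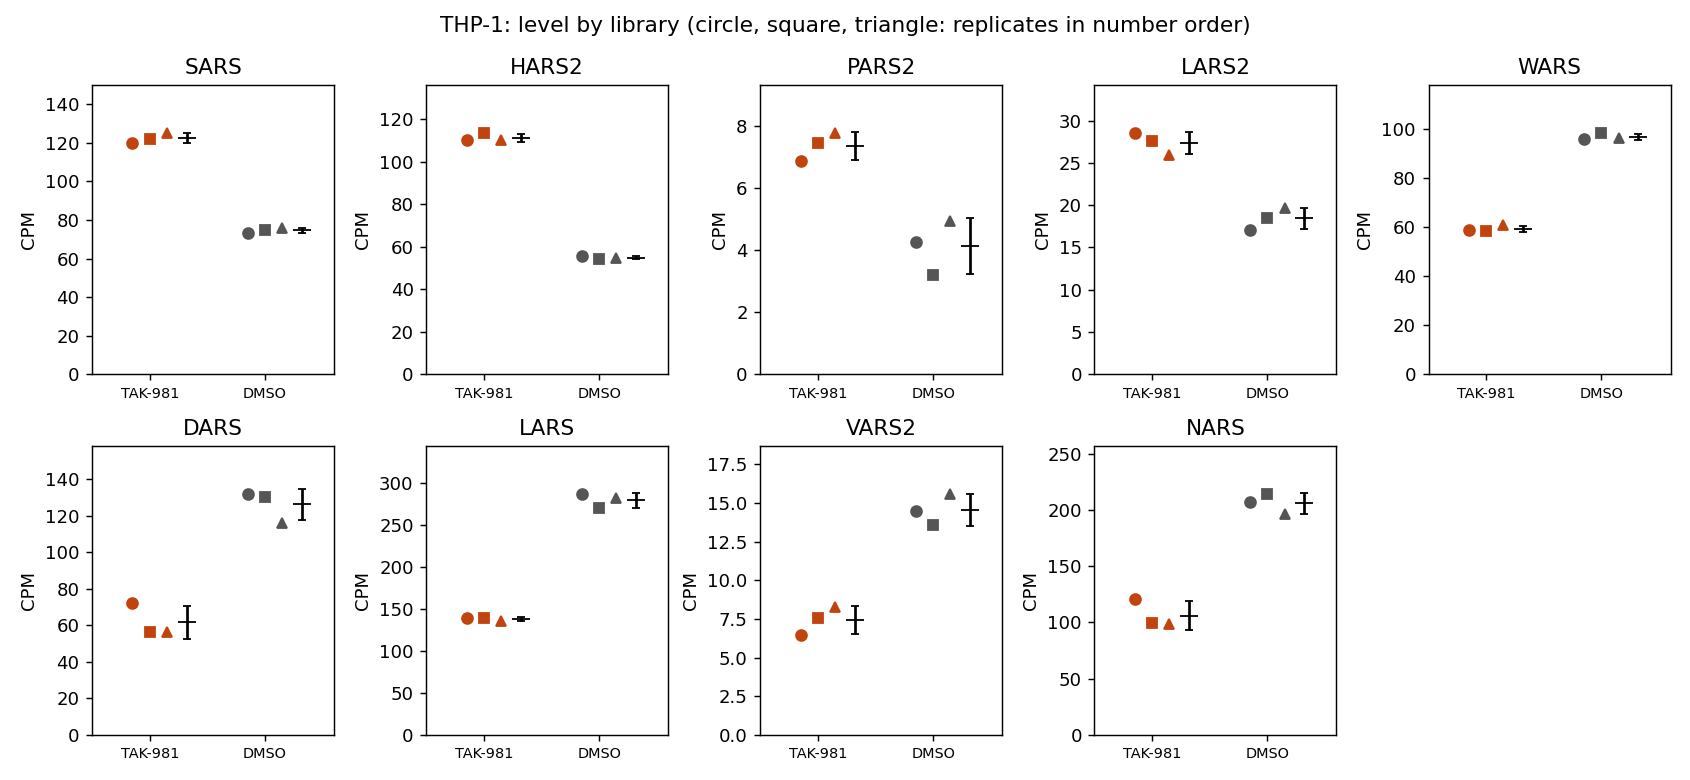
CPM of 9 synthetase genes in THP-1 with TAK-981 and DMSO (each symbol is 1 library; black marks are mean ± SD, n = 3; axes start at 0). SARS, HARS2, PARS2 and LARS2 are higher with TAK-981 and WARS, DARS, LARS, VARS2 and NARS lower, with no overlap in any of the 9. All 9 are called genes, and the share of all genes without overlap is not given.

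Across the lines, EARS2 was the only member that fell with TAK-981 in 4 of 4 lines, which 0.364% of the 11527 genes tested in all lines did. Another 3 members, DARS, CARS2 and IARS2, fell in 3 lines, so 4 of 36 fell in at least 3, against 3.19% of those genes. DARS and CARS2 were not called in HCT116, and IARS2 was not called in THP-1. SARS rose in 3 of 4 lines, all but Colo205, the most of any member. Thus 1 of 36 members rose in at least 3 lines, which is no larger a share than the 4.7% of genes that did. RARS was not called in any of the 7 comparisons with DMSO.

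**Figure D5:**
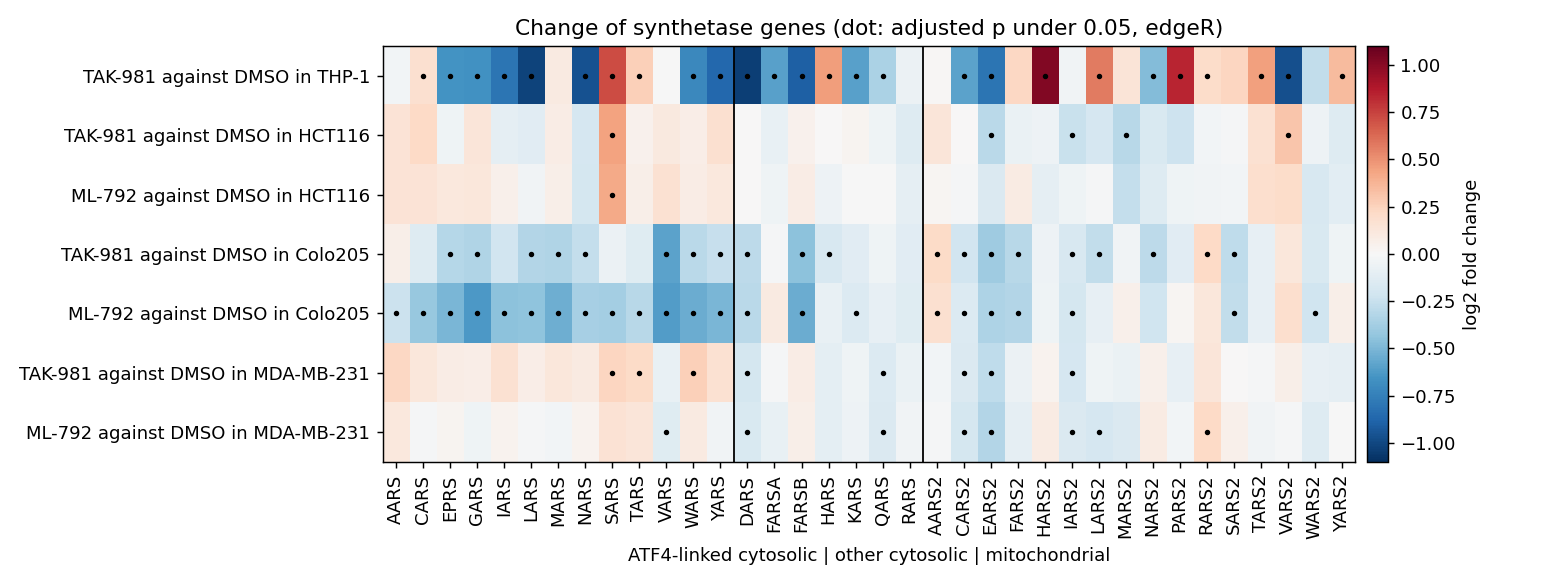
Log2 fold change of the 36 synthetase genes (columns) in the 7 comparisons with DMSO (rows), red for higher and blue for lower with the inhibitor, with a dot where the adjusted p was under 0.05. THP-1 has the strongest colours in both directions, Colo205 is blue for nearly all ATF4-linked genes, and the EARS2 column is blue in every row.

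The difference of the TAK-981 response between lines was tested in one model over the 4 lines. It was called for 30 of 36 members, where 57.7% of all genes were called. The 6 that were not called are AARS, RARS, AARS2, IARS2, RARS2 and WARS2. THP-1 differed from HCT116 in 22 members, from Colo205 in 28 and from MDA-MB-231 in 23, where 47.2%, 43.7% and 45.2% of all genes were called. Without THP-1, the response differed between the remaining lines in 12 of 36 members, against 21.5% of all genes.

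HCT116 and Colo205 differed in 8 members, each higher in HCT116 (13.3% of all genes): CARS, FARSB, GARS, MARS, SARS, VARS, WARS and YARS. The VARS response differed by 0.69 ± 0.11 SE on the log2 scale (HCT116 minus Colo205, adjusted p = 4.05e-05). Colo205 and MDA-MB-231 differed in 9 members, each lower in Colo205 (11.2% of all genes): EPRS, FARSB, GARS, LARS, MARS, NARS, VARS, WARS and YARS. WARS differed by -0.53 ± 0.12 (Colo205 minus MDA-MB-231, adjusted p = 0.00310). HCT116 and MDA-MB-231 differed in 0 members with edgeR (6.85% of all genes), with 4 members at an unadjusted p under 0.05, and the members' 95% intervals reached from -0.50 to 0.49. DESeq2 was not run on the difference between lines.

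Beside the synthetases stand the 3 scaffold genes, XPOT and 8 other genes of transfer RNA charging. In HCT116, 0 of these 12 were called by edgeR with either inhibitor, where 14.4% (TAK-981) and 11.3% (ML-792) of all genes were. With each, 1 of them was at an unadjusted p under 0.05. In Colo205, AIMP1 and AIMP2 fell with both inhibitors (AIMP2 -0.45 with TAK-981 and -0.39 with ML-792, log2), and XPOT, the exportin of transfer RNA, fell with ML-792 (-0.52). In MDA-MB-231, 1 scaffold gene was called, AIMP2 with ML-792 (-0.20). All 3 scaffold genes and XPOT fell in THP-1 (AIMP1 -0.69, AIMP2 -0.39, EEF1E1 -0.38 and XPOT -0.68). Of the 8 other charging genes, 4 fell and 1 rose in THP-1, where 33.9% and 35.5% of all genes did. In Colo205, 3 fell with TAK-981 and 6 with ML-792, against 18% and 20.8% of all genes. In MDA-MB-231, 2 rose with TAK-981, where 10.6% of all genes did. With ML-792, 1 rose and 1 fell there, shares near the 11.6% and 11% of all genes. Within that list SEPSECS, which forms selenocysteine on its transfer RNA, rose in THP-1 (1.29). SEPSECS also rose in MDA-MB-231 with TAK-981 (0.59) and ML-792 (0.55), and fell in Colo205 with ML-792 (-0.55). EIF2AK4 fell with TAK-981 in THP-1 (-0.28) and HCT116 (-0.28). Of this gene and GCN1L1, listed with it for sensing uncharged transfer RNA, 1 fell in Colo205 with each inhibitor. The lower log2 fold change of the 2 genes there was -0.32 with TAK-981 and -0.25 with ML-792.

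Of the ATF4 targets and regulators outside the synthetases, 17 of 26 tested fell and 5 rose in Colo205 with ML-792 (20.8% and 20.9% of all genes did), and 10 fell and 5 rose with TAK-981 (18% and 17.9%). CTH, of cysteine synthesis, had log2 fold changes of -1.06 under TAK-981 and -1.72 under ML-792. ASNS, asparagine synthetase, had -0.47 under TAK-981 and -0.93 under ML-792. DDIT3, a transcription factor of the stress response, moved the other way there, with 1.15 for TAK-981 and 1.31 for ML-792, and rose in all 7 comparisons with DMSO. In MDA-MB-231, 10 of 26 rose and 1 fell with TAK-981, against 10.6% and 9.52% of all genes (ASNS 0.52, PSAT1 of serine synthesis 0.47). With ML-792 2 rose and 2 fell, a smaller share than the 22.6% called among all genes. In HCT116, 9 of 25 rose under TAK-981 and 4 under ML-792 (7.66% and 5.99% of all genes), and none fell by either, with 0 and 1 below 0 at an unadjusted p under 0.05. In THP-1, 16 of 27 fell, against 33.9% of all genes, and 9 rose, a share near the 35.5% of all genes, with PSAT1 at -1.83 and ATF3, another stress transcription factor, at 2.58. ATF4 itself rose in HCT116 with TAK-981 (0.26) and in Colo205 with TAK-981 (0.19) and ML-792 (0.18), but was not called in THP-1 or MDA-MB-231. MYC, a growth-linked transcription factor, fell in THP-1 (-1.02), in HCT116 (-0.36 with TAK-981, -0.30 with ML-792) and in Colo205 (-0.20 with each), and rose in MDA-MB-231 with TAK-981 (0.17).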

How the data were processed

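Per the labels' protocols, polyA RNA was made into libraries with the Illumina TruSeq RNA kit and sequenced as paired reads. The aligner, counter and genome build are not stated in the labels or files used here. The authors deposited per-library estimated counts (not all whole) and FPKM per gene. Counts were rounded and, for each line, genes were kept by edgeR's filterByExpr (count minimum 10, total 15), scaled by TMM and fitted with edgeR 4.0.16 quasi-likelihood in R 4.3.3, all groups of a line together; p-values were adjusted by Benjamini-Hochberg over all genes, with 95% intervals. Alternatives used DESeq2 1.42.0, limma 3.58.1 on log2(FPKM + 0.1 or 1), other filters and scalings, a replicate block, and libraries left out. The scripts were tested on simulated data. HARS, IARS, MARS, CARS2, HARS2 and VARS2 had fractional counts in all 33 libraries, YARS and SARS2 in some, so reads shared with other genes make them uncertain. Named genes were, per comparison, up to 4 rising and 4 falling called members by size of change (higher group at 5 CPM or more), and WARS. AARS was added after its values were seen, and SARS in Colo205 is also outside this rule. Replicate numbers pair the samples where every same-numbered correlation over genes of at least 10 CPM was over 0.1: Colo205 ML-792 with DMSO (0.170 to 0.486), Colo205 TAK-981 with ML-792, and MDA-MB-231 TAK-981 with DMSO. This check depends on the expression minimum. THP-1 groups share no numbers. The members and lists were chosen with earlier results of these data known. No protein sequences and no mouse libraries were used here. Python 3.11.15 and matplotlib 3.10.9 drew the figures.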

Additional observations from a re-analysis of the deposited data

Results flagged for a closer look

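For 30 of the 36 synthetase genes the response to TAK-981 (log2 fold change against DMSO) differed between the 4 lines by an interaction test in edgeR (adjusted p from 1.55e-12 to 0.0446). The same test called 57.7% of all genes. THP-1 had the lowest response for 16 of the 30 and the highest for 11. The share of all genes with THP-1 at either end is not given here. The value given for each gene is its highest response among the lines minus its lowest, on the log2 scale.

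With THP-1 lowest, the range was 1.29 for VARS2, 1.09 for LARS, 1.05 for DARS, NARS and YARS, 0.983 for FARSB, 0.973 for IARS and 0.964 for WARS. It was 0.811 for GARS, 0.739 for EPRS, 0.644 for KARS, 0.613 for CARS2, 0.608 for FARSA, 0.530 for EARS2 and NARS2, and 0.333 for QARS.

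With THP-1 highest, the range was 1.06 for HARS2, 1.04 for PARS2, 0.811 for LARS2, 0.754 for SARS, 0.606 for HARS, 0.515 for TARS2 and 0.506 for FARS2. It was 0.488 for SARS2, 0.467 for YARS2, 0.423 for MARS2 and 0.366 for TARS.

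Colo205 had the lowest response where THP-1 was at neither end, with a range of 0.689 for VARS, 0.426 for MARS and 0.348 for CARS. EARS2 differs in size only, since it fell in all 4 lines.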

How the results depend on the processing

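The numbers of members that fell in Colo205 and THP-1, and of those that differed between lines, stayed within 1.5 times under the alternatives that kept all 4 lines. Limma on log2(FPKM + 0.1) or (FPKM + 1) raised the count that rose in THP-1 to 16, where the median over all genes moved to 0.239 and 0.165, gave 1 rising in HCT116 with TAK-981, 1 falling there with ML-792, 0 rising in Colo205 with ML-792 and 4 falling in MDA-MB-231 with ML-792; FPKM + 1 gave 1 rising in Colo205 with TAK-981. IARS2 in THP-1, which was not called at -0.04, was at 0.21 under both. With the 2 compared groups only, HCT116 with TAK-981 had 1 rising and 0 falling, and ML-792 had 0 rising in Colo205 and in MDA-MB-231. DESeq2, or no filter, gave 1 rising with TAK-981 and 0 with ML-792 in Colo205; in MDA-MB-231 no filter gave 5 rising under TAK-981 and 2 under ML-792, and leaving out genes of the mitochondrial genome also gave 2 with ML-792. The replicate block gave 2 rising in Colo205 and 4 in MDA-MB-231 with ML-792, 7 rising in MDA-MB-231 with TAK-981, and, between the compounds, 10 in Colo205 and 1 in MDA-MB-231; where numbers pair the samples it moved no other count by over 1.5 times. The other comparisons do not meet the pairing check over all genes, though the ATF4-linked genes share the replicate 2 pattern there, and their median standard error under the block was 0.615 of its unblocked size for TAK-981 against DMSO in Colo205 and 0.520 for ML-792 against DMSO in MDA-MB-231. In HCT116 it was 0.911 for each inhibitor against DMSO. Leaving replicate 2 out of all groups, chosen after seeing the data, gave 0 rising and 0 falling in HCT116 with TAK-981, 0 rising there with ML-792, 1 rising in Colo205 with TAK-981, 10 between the compounds in Colo205, and in MDA-MB-231 8 rising and 3 falling with TAK-981 and 2 rising and 3 falling with ML-792. Without THP-1, 12 members differed between lines. The promoter motif was in 2 members as TGATGCAA and in 8 over 300 bases. The causes were not tested.

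Leaving out 1 library at a time, the count that rose ranged from 7 to 10 in THP-1, 1 to 2 in HCT116 with TAK-981 and 0 to 1 with ML-792, 0 to 1 in Colo205 with TAK-981 and 0 to 2 with ML-792, and 1 to 10 in MDA-MB-231 with TAK-981 and 0 to 2 with ML-792. The count that fell ranged from 16 to 18 in THP-1, 0 to 3 and 0 to 1 in HCT116, 12 to 16 and 17 to 21 in Colo205, and 3 to 6 and 4 to 7 in MDA-MB-231 (TAK-981, then ML-792). Between the compounds it ranged from 0 to 11 in Colo205 and stayed at 0 in HCT116 and MDA-MB-231, and between lines from 25 to 32.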
